A study of Mus musculus with 6 samples.

Results

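The nuclei described here were 1126 of the 45473 single nuclei that were sequenced from whole cerebella of 6 mice. Their label in the authors' cell typing was Astrocyte.Gja.Slc1a3, which combines the gap junction genes of astrocytes with *Slc1a3*, the glial glutamate transporter GLAST. A nucleus was counted where its label held the word astrocyte but not Bergmann, and where no other label was more common in its cluster of the same mouse. The 3 SCA1 mice were *Pcp2-ATXN1[82Q]* transgenics, in which the *Pcp2* promoter, active in Purkinje cells (PCs), drives a human *ATXN1* transgene with a lengthened CAG repeat, and the 3 controls were wild-type (WT) littermates. All mice were 12 weeks old on a C57BL/6 background and gave 1 library each. Astrocyte.Gja.Slc1a3 nuclei numbered 629 in SCA1 mice (307, 175 and 147 in mice 1, 2 and 3) and 497 in WT mice (284, 132 and 81). Since the transgene is driven in PCs, a difference in these nuclei compares glia of mice in which another cell type carries the mutant protein.

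Astrocytes of the cerebellar cortex take up glutamate and potassium, hold the water channel AQP4 on their endfeet and supply neurons with lipids and secreted proteins. Velate astrocytes lie among granule neurons in the granule cell layer, whereas Bergmann glia sit beside PCs and send radial fibers along PC dendrites. Bergmann glia hold AMPA receptors and respond to Sonic hedgehog, a ligand that PCs release.

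The rule was meant to find velate astrocytes, and the marker levels went against that name. *Aqp4*, *Gfap* (an astrocyte filament protein) and *Slc1a2* (the glutamate transporter GLT-1) had been set as the markers of velate astrocytes. *Aqp4* reached 201 counts per 1000000 UMIs (CPM) on average and 157 to 261 CPM in the 6 mice, where a UMI is 1 captured transcript. In 1006 nuclei of the label Gja1.Htra1, which holds neither the word astrocyte nor Bergmann, *Aqp4* was at 967 to 1425 CPM. The ranges of both labels were thus far apart. *Gfap* averaged 25.4 against 152 CPM and *Slc1a2* averaged 1049 against 1750.1 CPM, again lower in the Astrocyte.Gja.Slc1a3 nuclei. *Gpc5*, which encodes a glypican, was at 4.11 to 45.7 CPM in them and at 2981 to 4886 CPM in Gja1.Htra1 nuclei.

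Markers that had been set for Bergmann glia lay the other way for 6 of 7 genes. *Gdf10* averaged 129 CPM against 9.99 CPM in Gja1.Htra1 nuclei, *Hopx* 155 against 49.4 CPM and *A2m* 504 against 138 CPM. *Timp4*, *Fabp7* and *Wif1* were also higher on average, although the mice overlapped between labels for *Fabp7*, and *Dao* was lower at 286 against 361 CPM. *Slc1a3* itself was at 3294 to 4218 CPM against 707 to 821 CPM. At least 1 UMI of *Gdf10* was seen in 63.7% of Astrocyte.Gja.Slc1a3 and 9.44% of Gja1.Htra1 nuclei, and at least 1 UMI of *Gpc5* in 5.68% and 70.6%. The nuclei are therefore called by their label below and get no cell type name, and the values for them describe neither velate astrocytes nor the Gja1.Htra1 label.

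**Figure D1:**
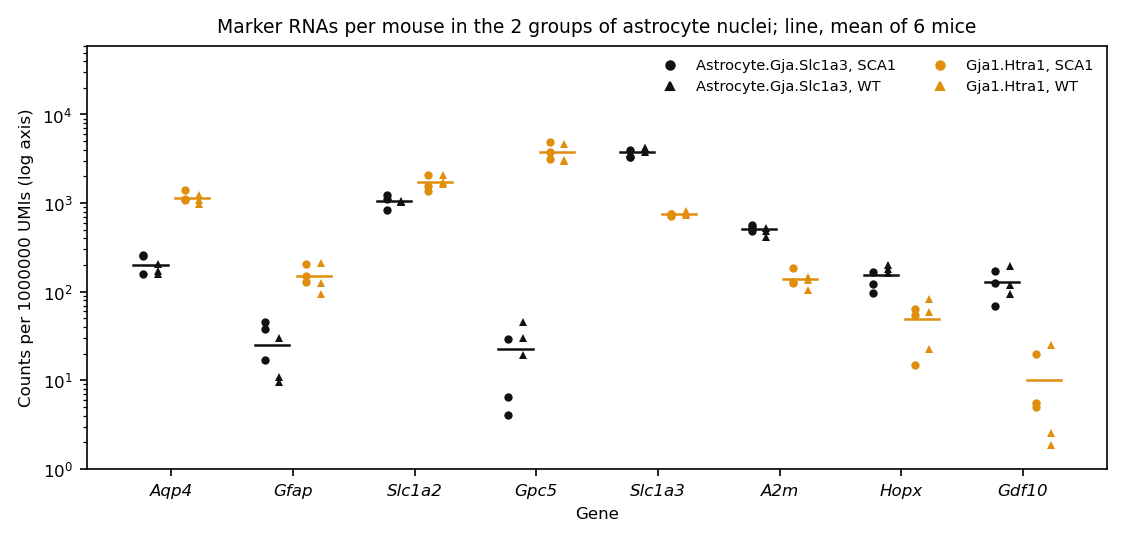
Counts per 1000000 UMIs (log axis) of 8 marker genes in each mouse, in Astrocyte.Gja.Slc1a3 nuclei (black) and Gja1.Htra1 nuclei (orange), with circles for SCA1 mice, triangles for WT mice and a line at the mean of 6 mice. The Astrocyte.Gja.Slc1a3 nuclei lie lower for *Aqp4*, *Gfap*, *Slc1a2* and *Gpc5* and higher for *Slc1a3*, *A2m*, *Hopx* and *Gdf10*.

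Within each mouse these nuclei formed 1 cluster, in which 39 of 1165 nuclei carried another label. Median depth per nucleus was 9183, 6328 and 9413 UMIs for the SCA1 mice, in the order of their numbers, and 9395.5, 3500.5 and 9132 UMIs for the WT mice, so that WT mouse 2 was the shallowest. It held 52 of the 67 nuclei that had under 3000 UMIs. Libraries shared 7 to 44 nucleus barcodes per pair of mice, and 0 of these were shared between Astrocyte.Gja.Slc1a3 nuclei. Mouse 1 of each genotype was taken as the first sequencing batch and the others as the second, from the numbers of the libraries. RNA of other cell types was present in every library. Summed markers of granule neurons, PCs, oligodendrocytes, interneurons and endothelial cells were highest in both mice of batch 1, whereas those of oligodendrocyte precursors were lowest there, at 95.2 and 116 CPM against 138 to 213 CPM, and those of microglia and of mural cells and fibroblasts were highest in SCA1 mouse 2. Markers of granule neurons, which were 36979 of the nuclei, summed to 1882 to 3574 CPM in SCA1 and 1146 to 3933 CPM in WT mice over 10 genes, and markers of oligodendrocytes to 207 to 1028 and 191 to 1142 CPM over 8 genes. The 10 PC markers summed to 284 to 1439 CPM in SCA1 and 587 to 2933 CPM in WT mice. The sum for each SCA1 mouse was below that of the WT mouse with its number in mice 1 and 3, and above it in mouse 2.

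**Figure D2:**
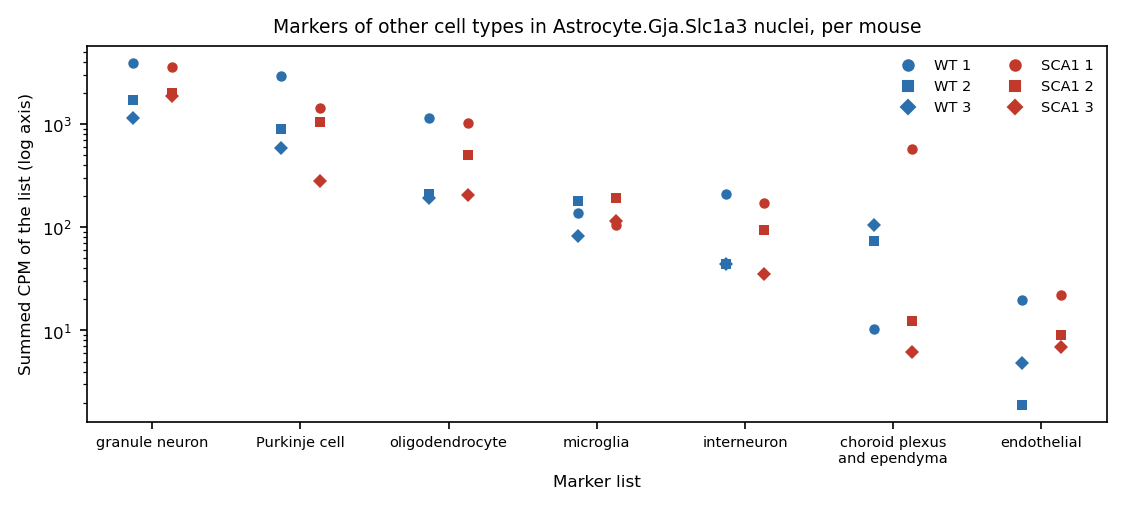
Summed CPM (log axis) of marker lists of other cell types in Astrocyte.Gja.Slc1a3 nuclei of each mouse, with WT mice in blue, SCA1 mice in red and a marker shape for each mouse number. WT mouse 1 has the highest sums for granule neurons, PCs, oligodendrocytes and interneurons, and choroid plexus and ependyma genes reach 569 CPM in SCA1 mouse 1 against at most 105 CPM in the other mice.

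Genes that marked these nuclei against all other nuclei were led by *Tnc*, which encodes the matrix glycoprotein tenascin-C. The list is a description, since the label itself rests on expression. *Tnc* averaged 219 CPM against 1.74 CPM in all other nuclei, a log2 ratio of 6.19 over the 6 mice. *Gria1*, which encodes an AMPA receptor subunit, was at 6116 against 102 CPM and had a UMI in 100% of the nuclei, against 39.5% of Gja1.Htra1 nuclei. *Gli1* (log2 ratio 5.54), which encodes a transcription factor that hedgehog signalling induces, was also among the 15 genes with the largest ratio. It had a UMI in 52.8% of these nuclei and 3.88% of Gja1.Htra1 nuclei. Others were *Gm29521*, *Mybpc1*, *Frem1*, *Ccdc192*, *Prex2*, *Gm3455*, *Ttll3*, *8030451A03Rik*, *Lama2*, *Plscr4* and *Gsap*, with log2 ratios of 5.37 to 6.16. *Lama2* and *Frem1* encode proteins of the extracellular matrix, as *Tnc* does. Between genotypes, 12 of the 15 genes had a negative log2 fold change, with a median of -0.28, and the mice did not overlap for 4, among them *Tnc*, *Gli1* and *Gm29521* (-0.60), all 4 lower in SCA1 mice. Of all 10755 genes tested, 5471 had a negative value and 2.90% were lower in SCA1 mice without overlap.

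SCA1 and WT mice were then compared gene by gene, to ask which genes differ in these glia. UMIs were summed per mouse, so that mice and not nuclei are the replicates, and 10755 genes had enough counts for edgeR's quasi-likelihood test, whose model held genotype and batch. No gene passed a Benjamini-Hochberg adjusted p of 0.05 (0 called, 0.00% of the genes tested), and the smallest adjusted p of this test was 0.514. At an unadjusted p under 0.05, 85 genes were higher in SCA1 (0.790% of the genes tested) and 136 were lower (1.26%). This split was not stable. It was 87 higher and 133 lower with RLE factors and 116 and 100 with the library size alone. Without SCA1 mouse 1 it was 182 and 103 and without WT mouse 1 it was 182 and 99, so that the larger side turned. These 2 fits are nearly the same comparison. Each leaves a single mouse in batch 1, which the batch term takes up, so that both compare the genotypes within batch 2. The split was 164 and 305 without SCA1 mouse 2 and 55 and 71 without WT mouse 2. For 3 against 3 mice, a full separation of the genotypes has a two-sided exact permutation p of 0.1, the smallest possible. Genotypes did not overlap for 542 genes, of which 230 were higher (2.14%) and 312 lower (2.90%) in every SCA1 mouse than in any WT mouse. With the library size alone this split turned to 329 higher and 228 lower, and of the genes named in the text as not overlapping, *Nat8f3*, *Gli1*, *Kcnj10*, *Dag1*, *Sqle*, *Cyp51*, *Hopx*, *Tgfbr1* and *Ddit4* overlapped with that scaling. If genes of low counts were kept as well, edgeR called 16 of 21681 genes (0.0738%), and limma-trend on single nuclei, which takes each nucleus as a replicate, called 402 (1.85%).

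When the number of the mouse replaced batch as a block, edgeR called 7 genes (0.0651% of the genes tested), 6 of them lower and 1 higher in SCA1 mice. This fit is given beside the one with batch because pairs 1 and 3 of mice with the same number deviated together (correlations 0.761 and 0.644). Pair 2 hardly did (0.102), and pair 1 is also batch 1. Nothing in the labels says what the numbers stand for. DESeq2 with genotype and batch called 3 of the 7 (0.0279%), which were *Tnc*, *8030451A03Rik* and *Gm12160*. The mice did not overlap between genotypes for 5 of the 7 genes.

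*Tnc* (ENSMUSG00000028364, chr4:63959785-64047015 of GRCm38, minus strand) was at 80.1, 94.96 and 168 CPM in SCA1 mice 1, 2 and 3 and at 204, 338 and 492 CPM in WT mice 1, 2 and 3, in the CPM scaled by TMM that are used for the comparison of genotypes. Every SCA1 mouse was below every WT mouse, and also below the WT mouse with its number. The log2 fold change was -1.55 (SE 0.275) in the edgeR fit with batch, where the adjusted p was 0.663, and -1.56 (SE 0.165, adjusted p = 0.000276) in the edgeR fit with the block. DESeq2 gave -1.56 with an adjusted p of 0.00444. In batch 1 the log2 ratio was -1.34 and in batch 2 it was -1.65. A UMI of *Tnc* was seen in 33.2%, 24.6% and 44.2% of the SCA1 nuclei and in 54.2%, 52.3% and 75.3% of the WT nuclei. With nuclei thinned to 3000 UMIs, so that depth was equal, and shallower nuclei left out, which kept 307, 165 and 143 nuclei in SCA1 and 284, 80 and 80 in WT mice, the shares were 18.5% ± 3.47 in SCA1 and 47.9% ± 13.2 in WT mice (SD, n = 3). Granule neurons, which should lack *Tnc*, had a UMI in 0.243% to 2.94% of nuclei, at a median depth of 2152 to 6912 UMIs per mouse against 3500.5 to 9413.

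*8030451A03Rik* (chr4:63979854-64149924, plus strand) is a noncoding transcript that overlaps *Tnc* on the opposite strand over 67162 bases. It was at 8.07, 43.9 and 92.5 CPM in SCA1 and 20.2, 195 and 296 CPM in WT mice. The genotypes overlapped, since WT mouse 1 was below SCA1 mice 2 and 3, but each SCA1 mouse was below the WT mouse of the same number. The log2 fold change was -1.70 (SE 0.319) with batch and -1.75 with the block (edgeR, adjusted p = 0.000417). The study names Chromium libraries counted with Cell Ranger and does not state whether reads were counted by strand. The transcript had 26, 55 and 124 UMIs in SCA1 mice and 60, 99 and 214 in WT mice. *Tnc* had 258, 119 and 225 UMIs in SCA1 mice and 605, 172 and 356 in WT mice. Whether reads of one gene were counted for the other was not tested.

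*Neat1* (chr19:5824708-5845478, minus strand), a long noncoding RNA that builds nuclear paraspeckles, was at 139, 95.8 and 94.7 CPM in SCA1 and 265, 213 and 200 CPM in WT mice. All SCA1 mice were lower, and the log2 fold change was -1.05 (SE 0.210) with batch and -1.04 with the block (edgeR, adjusted p = 0.0140). In Gja1.Htra1 nuclei *Neat1* was at 217, 138 and 368 CPM in SCA1 and 284, 268 and 351 CPM in WT mice (scaled by TMM within that label), where the genotypes overlapped.

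The remaining genes that were lower with the block encode proteins of different roles. *Lyn* (chr4:3678115-3813122), a Src family tyrosine kinase, was at 85.7, 80.6 and 136 CPM in SCA1 and 146, 209 and 264 CPM in WT mice (log2 fold change -0.999, adjusted p = 0.0294 with the block in edgeR). *Shroom3* (chr5:92683435-92965318), which encodes an actin-binding protein that shapes cells, was at 47.2, 75.0 and 133 CPM in SCA1 and 80.0, 209 and 315 CPM in WT mice (-1.14, adjusted p = 0.0140 with the block in edgeR). *Cpsf4l* (chr11:113698172-113710017) was at 13.04, 15.2 and 25.4 CPM in SCA1 and 34.8, 74.8 and 51.1 CPM in WT mice (-1.53 with batch, adjusted p = 0.0231 with the block in edgeR). Genotypes were apart for *Lyn* and *Cpsf4l* and overlapped for *Shroom3*, in which SCA1 mouse 3 was above WT mouse 1. *Shroom3* shares its region with the gene model *Gm20500*.

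*Gm12160* (chr11:45160943-45213656, plus strand) is a long intergenic noncoding RNA and was the called gene that was higher in SCA1 mice. Its 72 UMIs were 27, 26 and 19 in the SCA1 mice and 0 in each WT mouse. Over the groups this is at least 17.6-fold higher in SCA1, with 3 counts taken as the limit that a count of 0 allows in the WT group. The adjusted p was 0.00610 with the block and 0.514 with batch in edgeR. Gja1.Htra1 nuclei also held it in SCA1 mice, at 6.21, 13.004 and 10.95 CPM, and at 0 in the WT mice, so that it was not particular to the Astrocyte.Gja.Slc1a3 label. In granule neurons a UMI of *Gm12160* was seen in 729 of 20201 SCA1 nuclei and in 6 of 16778 WT nuclei, so that WT libraries did not lack it fully.

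**Figure D3:**
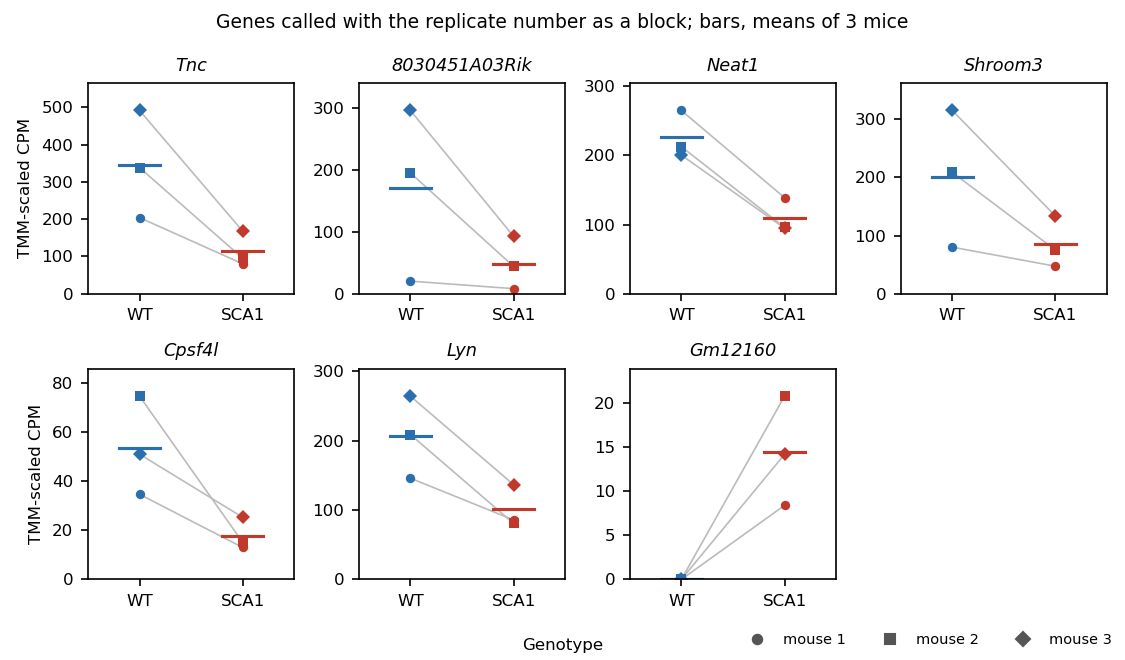
TMM-scaled CPM of the 7 genes called with the replicate number as a block, for WT mice (blue) and SCA1 mice (red), with a gray line between mice of the same number and a bar at the mean of 3 mice. All 3 lines fall for *Tnc*, *8030451A03Rik*, *Neat1*, *Shroom3*, *Cpsf4l* and *Lyn* and rise for *Gm12160*, which is at 0 in the WT mice.

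Genes outside these 7 are given as values, since none passed the adjusted threshold in edgeR with batch or with the block on the 10755 genes. Among genes of at least 20 CPM whose mice did not overlap between genotypes, those with the smallest p that were higher in SCA1 included *Bmp6* and *Acvr2a*. *Bmp6*, a secreted bone morphogenetic protein (BMP), was at 22.98, 35.9 and 50.7 CPM in SCA1 and 13.8, 9.84 and 19.3 CPM in WT mice (log2 fold change 1.16, SE 0.323, edgeR). *Acvr2a*, a type II receptor for activins and BMPs, was at 39.7, 59.1 and 77.5 CPM in SCA1 and 28.0, 33.5 and 33.2 CPM in WT mice (0.82, SE 0.246, edgeR). In Gja1.Htra1 nuclei the log2 fold changes were 0.21 for *Bmp6* and 0.06 for *Acvr2a*.

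*Adcy8*, a calcium-stimulated adenylyl cyclase, was at 202, 255 and 300 CPM in SCA1 and 120, 150 and 188 CPM in WT mice (0.73, SE 0.218, edgeR). *Rmst*, a long noncoding RNA that binds SOX2 in neural cells, was at 151, 185 and 234 CPM in SCA1 and 76.9, 112 and 148 CPM in WT mice (0.79, SE 0.230, edgeR). For both genes the lowest SCA1 mouse was just above the highest WT mouse, and each SCA1 mouse was above the WT mouse of its number. In Gja1.Htra1 nuclei *Adcy8* was at 301, 294 and 424 unscaled CPM in SCA1 and 274, 280 and 385 in WT mice. Granule neurons held *Adcy8* at 161, 147 and 242 unscaled CPM in SCA1 and 134, 115 and 172 in WT mice. The other 6 of the 10 genes on this side were *Gm40331*, *Gm9750*, *Mgat4c*, *Gm26691*, *Gm1604a* and *Nat8f3*, with log2 fold changes of 0.70 to 1.12.

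On the lower side, the 10 genes chosen in the same way included *Tnc*, *Cpsf4l*, *Neat1* and *Lyn*. *Lgr6*, which encodes an R-spondin receptor of the Wnt pathway, was at 71.4, 42.3 and 42.5 CPM in SCA1 and 114, 88.6 and 115 CPM in WT mice (-1.04, SE 0.234, edgeR), and its adjusted p with the block was 0.0622. *Akt2*, a kinase of insulin signalling, was at 87.9, 65.4 and 77.5 CPM in SCA1 and 119, 128 and 160 CPM in WT mice (-0.81, SE 0.234, edgeR). *Rmnd5b* (-1.16), *Clstn2* (-1.01), *Fam131a* (-0.85) and *2700081O15Rik* (-0.82) made up the rest. *Clstn2*, which encodes the synaptic adhesion protein calsyntenin-2, was also lower by log2 fold changes of -1.25 in Gja1.Htra1 nuclei and -1.06 in granule neurons.

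Genes of known pathways were counted in lists, and in the edgeR fit with batch 0 members were called in each of the 19 lists. With the block, 1 member was called, which was *Tnc*. The counts below are therefore of genes at an unadjusted p under 0.05 and of genes whose genotypes did not overlap, and are to be read against the shares of all genes given above. The median log2 fold change of all genes tested was -0.01.

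Among the pathway lists with more than 5 genes tested, the hedgehog list had the lowest median, at -0.22 over 12 genes. Its median was -0.18 in Gja1.Htra1 nuclei, so that it was not particular to the Astrocyte.Gja.Slc1a3 label, and 0.02 in granule neurons. PTCH1 is a receptor of Sonic hedgehog, GAS1 is a co-receptor, HHIP binds the ligand, and *Gli1*, *Ptch1* and *Hhip* are themselves induced by the pathway. Of the 12 genes, 3 were lower at an unadjusted p under 0.05 and the same 3 did not overlap between genotypes, against 0 higher. *Gli1* (chr10:127329882-127341974) was at 93.5, 79.8 and 67.1 CPM in SCA1 and 153, 140 and 93.9 CPM in WT mice (log2 fold change -0.68, SE 0.233, edgeR). *Gas1* (chr13:60174405-60177365) was at 34.8, 37.5 and 32.8 CPM in SCA1 and 41.5, 88.6 and 48.4 CPM in WT mice (-0.67, SE 0.281, edgeR), and the value ranged from -0.94 to -0.35 with a mouse left out. The highest SCA1 mouse was close below the lowest WT mouse for *Gli1* and *Gas1*. *Ptch1* (chr13:63508328-63573598) had a log2 fold change of -0.46 and *Hhip* one of -0.73, which ranged from -1.05 to -0.15 with a mouse left out, and both overlapped. Batches differed for the list as a whole, with a median of 0.19 in batch 1 and -0.46 in batch 2, although the log2 ratio of *Gli1* was -0.71 in batch 1 and -0.66 in batch 2.

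Genes for potassium, water and ion transport and gap junctions had a median of -0.04 over 18 genes, with 2 lower and 0 higher at an unadjusted p under 0.05. These 2 encode subunits of the inward rectifier potassium channel by which glia clear potassium. *Kcnj10* (Kir4.1) was at 95.3, 61.4 and 50.7 CPM in SCA1 and 126, 98.4 and 98.1 CPM in WT mice (log2 fold change -0.65, SE 0.221, edgeR). *Kcnj16* (Kir5.1) was at 40.4, 36.7 and 41.8 CPM in SCA1 and 57.0, 64.9 and 55.3 CPM in WT mice (-0.56, SE 0.220, edgeR). Genotypes did not overlap for either gene, nor for *Dag1* (-0.45), which encodes dystroglycan, an anchor of endfeet to the basal lamina. *Aqp4*, whose channel is held at the same endfeet, was not lower, with a log2 fold change of 0.27 (SE 0.230, edgeR) and overlapping mice. With a mouse left out this value ranged from 0.12 to 0.41. In Gja1.Htra1 nuclei the log2 fold change of *Kcnj10* was -0.57 and that of *Kcnj16* was -0.17.

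The lipid and cholesterol list had 2 lower and 1 higher of 22 genes at an unadjusted p under 0.05 and a median of -0.09. *Sqle*, squalene epoxidase of cholesterol synthesis, was at 17.1, 12.0 and 11.9 CPM in SCA1 and 29.4, 39.4 and 20.7 CPM in WT mice (log2 fold change -1.05, SE 0.318, edgeR). All SCA1 mice were lower for *Sqle* and for the sterol demethylase gene *Cyp51* (-0.47), while *Abca1*, which exports cholesterol, had a log2 fold change of 0.51 with overlapping mice. *Sqle* also had a negative value in Gja1.Htra1 nuclei (-0.90), but one of 0.20 in granule neurons.

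**Figure D4:**
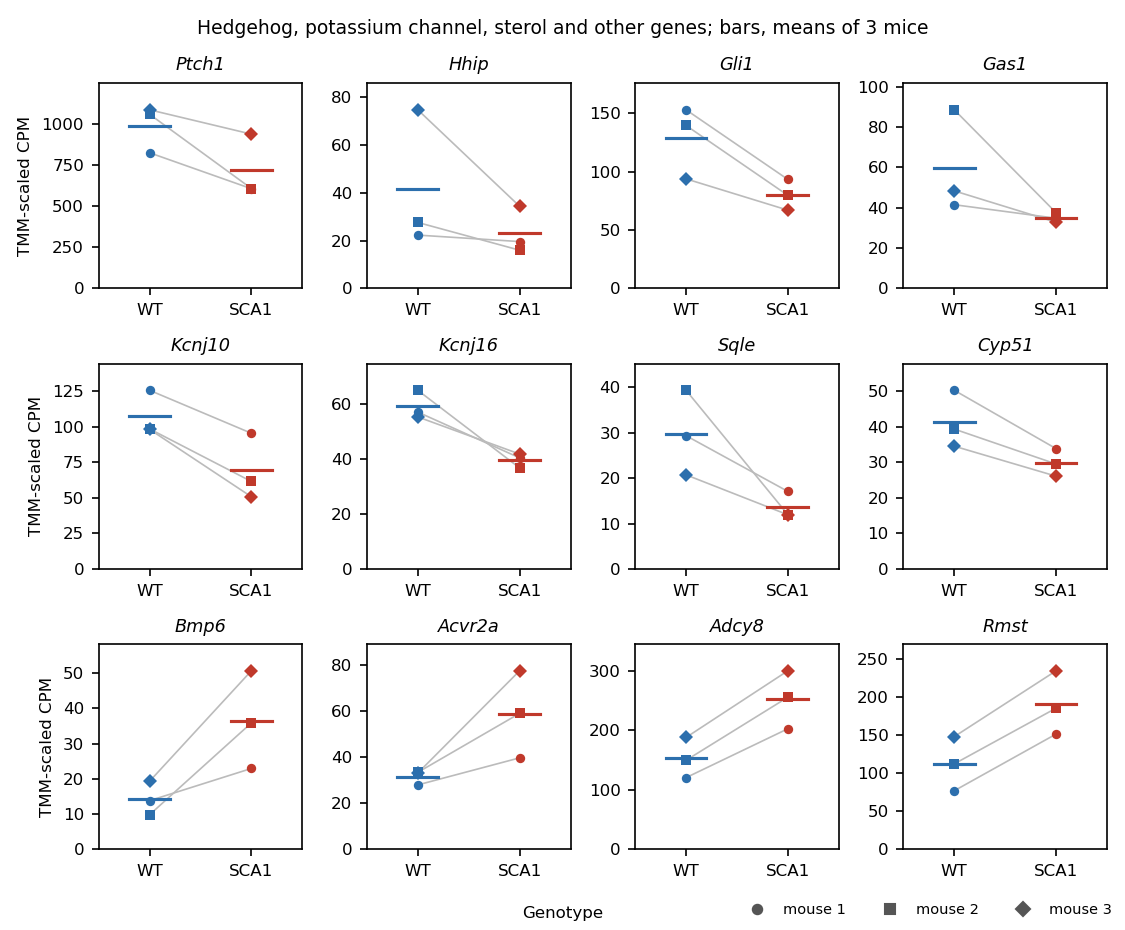
TMM-scaled CPM of hedgehog genes (*Ptch1*, *Hhip*, *Gli1*, *Gas1*), potassium channel genes (*Kcnj10*, *Kcnj16*), sterol genes (*Sqle*, *Cyp51*) and 4 genes that were higher in SCA1 mice, for WT mice (blue) and SCA1 mice (red), with a gray line between mice of the same number and a bar at the mean of 3 mice. Mice do not overlap between genotypes for any of these genes but *Ptch1* and *Hhip*, and none passed the adjusted threshold. With the library size alone, *Gli1*, *Kcnj10*, *Sqle* and *Cyp51* overlap as well.

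Among genes for synapse formation, phagocytosis and matrix, *Tnc* was the one whose genotypes did not overlap, of 19 tested. *Gpc5* had a log2 fold change of -1.42, which turned to 0.94 with nuclei taken by the label alone, at 4.47 to 27.3 CPM in SCA1 and 19.7 to 43.5 CPM in WT mice, and *Csmd1*, a complement regulator, one of 0.73. With a mouse left out they ranged from -2.34 to -1.03 and from 0.52 to 1.31. For growth factors and their receptors, 2 of 17 genes had an unadjusted p under 0.05 and both were lower, the angiogenic factor gene *Vegfa* (-0.51) and *Nrg1* (-1.29), whose product binds ErbB receptors. *Vegfa* was lower without overlap, and *Tgfbr1* (0.66), a receptor gene of transforming growth factor beta, and *Fgf12* (0.35) were higher without overlap, with ranges of 0.36 to 1.26 and 0.16 to 0.47 when a mouse was left out. *Pdgfd* was at 334, 689 and 1100 CPM in SCA1 and 231, 435 and 707 CPM in WT mice (0.61), higher in each SCA1 mouse than in the WT mouse of its number but overlapping. In the Notch list 1 of 11 genes was lower, the target gene *Hes1* (-1.13, or -1.44 to -0.65 with a mouse left out), whose mice overlapped, and the receptor gene *Notch3* was higher without overlap (0.40). Of 27 adhesion and axon guidance genes 2 were higher at an unadjusted p under 0.05, *Tenm4* (0.59) and *Lrrc4c* (0.69, or 0.46 to 1.22 with a mouse left out, and with overlapping mice), and of 23 astrocyte transcription regulators 1, which was *Rmst*.

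The astrocyte identity list had 1 higher (*Gfap*) and 1 lower (*Gpc5*) of 20 genes and a median of -0.06. Of 22 genes of the glutamate, GABA and glutamine cycle and of 22 calcium signalling genes, with medians of 0.02 and -0.10, 0 had an unadjusted p under 0.05 in edgeR, and 1 of each list did not overlap, which was the calcium sensor gene *Stim1* (0.28) in the second. Of the 7 markers set for Bergmann glia, 1 was lower at such a p, *Hopx*, at 116, 164 and 107 CPM in SCA1 and 171, 207 and 184 CPM in WT mice (-0.54), beside -0.41 in granule neurons, and the median was -0.20. *Slc1a2* had a log2 fold change of -0.02 and *Gria1* one of -0.07, both with overlapping mice. The circadian clock list had 0 of 16, the glucocorticoid list 0 of 15 and the glycolysis and lactate list 0 of 20 genes at an unadjusted p under 0.05, with medians of -0.02, 0.04 and 0.13, and of these genes *Ddit4* (0.22, glucocorticoid list) alone did not overlap. In the list of immediate early and heat shock genes 10 of 21 could be tested, of which 0 had such a p and *Hsph1* (-0.46) did not overlap, although its value was 0.058 in thinned nuclei. Sets of genes used to grade reactive astrocytes were mostly too low to test, with 5 of 13 pan-reactive, 3 of 12 A1 and 2 of 13 A2 genes tested, of which *Gfap* alone had an unadjusted p under 0.05.

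**Figure D5:**
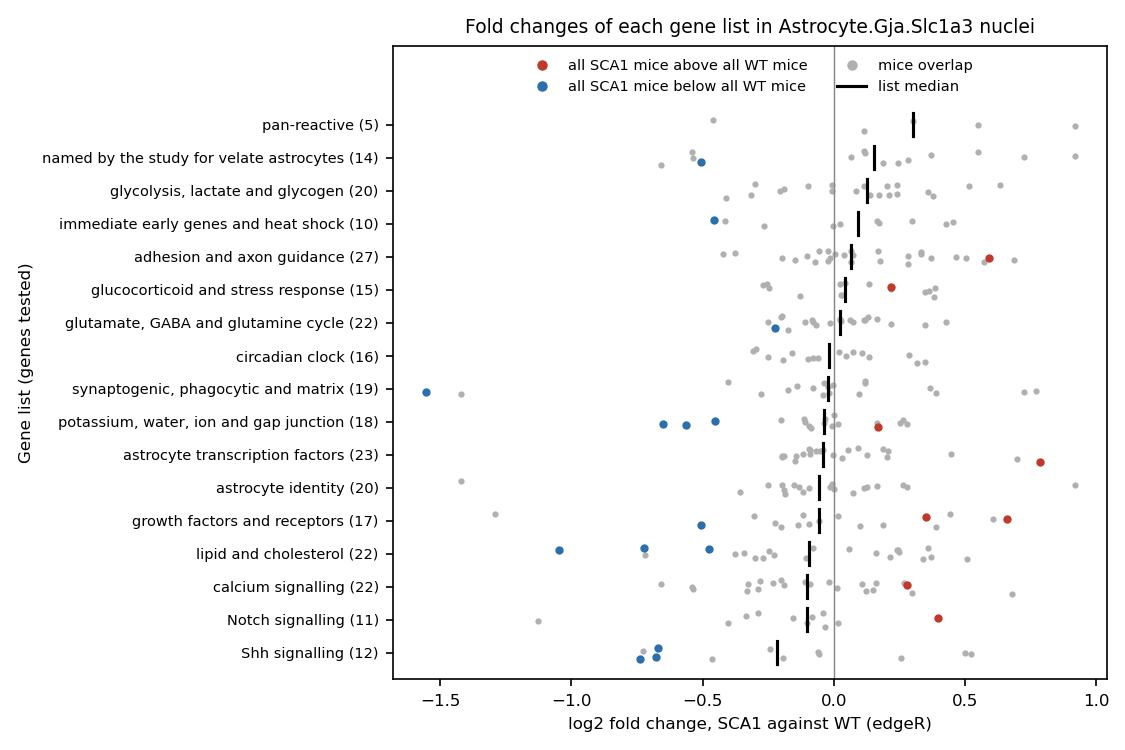
Log2 fold change of SCA1 against WT (edgeR, with batch) for each tested gene of 17 lists, where the black line is the median of the list, red and blue points are genes whose mice did not overlap and gray points are genes whose mice did. The hedgehog list has the lowest median (-0.22) and the 5 pan-reactive genes tested the highest (0.30), and *Tnc* has the lowest value of any gene shown (-1.55).

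A list of 14 genes was taken from those that the study's text names for velate astrocytes, and they were measured here in nuclei to which that name did not apply. Of the 14, 2 were higher and 1 was lower at an unadjusted p under 0.05 and 0 were called in edgeR, and a list chosen from these mice is not independent evidence. For Bergmann glia the study reports *Gli1*, *Ptch1* and *Kcnj10* as lower in SCA1 mice, *Gli1* also by RT-qPCR of whole cerebellum. It reports *Adcy8*, *Rmst*, *Pdgfd*, *Fgf12*, *Aqp4* and *Gfap* as higher there. The study's values from nuclei came from these same mice, so the values of these genes given here are not independent of them either. *Gfap* was at 43.2, 37.5 and 18.6 CPM in SCA1 and 28.7, 9.84 and 12.4 CPM in WT mice (log2 fold change 0.92, SE 0.339, edgeR). Both groups overlapped, and the share of nuclei with a *Gfap* UMI was 21.7% ± 9.61 in SCA1 and 12.1% ± 9.56 in WT mice (SD, n = 3, two-sided exact permutation p = 0.300, where 0.1 is the smallest p possible). Granule neurons, which do not express *Gfap*, had a log2 fold change of 1.13 for it, at 4.96 to 39.9 CPM, which overlaps the level in the Astrocyte.Gja.Slc1a3 nuclei. The part of free RNA in this value was not tested. *Vegfa* was at 76.7, 63.8 and 69.3 CPM in SCA1 and 99.2, 94.5 and 105 CPM in WT mice, and was the one of the 14 whose genotypes did not overlap.

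The remaining genes of the 14 had overlapping mice. Log2 fold changes were 0.55 for *Vim*, 0.24 for *Apoe*, 0.11 for *Cd44*, 0.07 for *Ncam2*, 0.28 for *Sema6d*, 0.19 for *Qk*, 0.12 for *Serpine2*, 0.37 for *Clu* and 0.73 for *Csmd1*. The sign turned with some mouse left out for *Vim*, *Apoe*, *Cd44*, *Ncam2*, *Sema6d*, *Serpine2* and *Clu*, but not for *Qk* and *Csmd1*. The value of *Qk* still ranged from 0.042 to 0.39. *Itpr1* (-0.54), *Pcp4* (-0.54) and *Gng13* (-0.66) are also markers of PCs. With a mouse left out, the value ranged from -0.83 to -0.32 for *Itpr1*, -1.32 to -0.19 for *Pcp4* and -1.65 to -0.16 for *Gng13*. All 10 PC markers had negative values in these nuclei, with a median of -0.61, beside -0.64 in Gja1.Htra1 nuclei and -0.56 in granule neurons. The part of PC RNA in the values of *Itpr1*, *Pcp4* and *Gng13* was not tested. The study's text also names 2 genes outside the list, the calcium pump gene *Atp2a2* (-0.28) and *Ttr* (-1.65, SE 2.35, edgeR), and both overlapped. The study reports *Atp2a2* as lower and *Ttr* as higher in PCs, Bergmann glia, velate astrocytes and oligodendrocytes of SCA1 mice. The edgeR value of *Ttr* has the other sign, although its mean was 173 CPM in SCA1 and 62.5 CPM in WT mice. That SCA1 mean rests on mouse 1. For mouse *Atxn1* the log2 fold change was -0.02 (SE 0.250, edgeR), and human *ATXN1* had 2 UMIs in SCA1 mouse 1, 1 UMI in WT mouse 1 and 0 in the other mice.

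Whether the genotypes differed more in these nuclei than in others was tested as an interaction of genotype and label over both kinds of nuclei of the same mice. Against Gja1.Htra1 nuclei edgeR called 0 of 11565 genes (0.00%), with 338 at an unadjusted p under 0.05 (2.92%), and DESeq2 called 0. *Frem1* had the smallest p, with an interaction of -1.41 on the log2 scale (SE 0.260, edgeR, adjusted p = 0.632), and encodes a matrix protein of basement membranes. It was at 149, 113 and 234 CPM in SCA1 and 222, 356 and 358 CPM in WT mice in the Astrocyte.Gja.Slc1a3 nuclei, and had a log2 fold change of 0.57 in Gja1.Htra1 nuclei. *Rmst* had an interaction of 0.85 (SE 0.181, edgeR), with 0.79 in one label and -0.03 in the other. *Adamts20* (interaction 0.94) had log2 fold changes of 1.06 in the Astrocyte.Gja.Slc1a3 and 0.16 in the Gja1.Htra1 nuclei, and *Slc35f1* (-1.15) had -0.62 and 0.51. The 1.06 of *Adamts20* ranged from 0.81 to 1.65 with a mouse left out. For *Ano4* (0.92) and *Dach2* (-1.99) the larger log2 fold change was that of the Gja1.Htra1 nuclei, with 0.16 and -0.74 for *Ano4* and -0.10 and 1.99 for *Dach2*. *Tnc* had too few counts in Gja1.Htra1 nuclei, 3.76 to 5.57 CPM, for a fold change there.

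Against granule neurons edgeR called 0 of 16162 genes (0.00%), with 209 at an unadjusted p under 0.05 (1.29%), and DESeq2 called 1 (0.00619%), *Wwc1*, which encodes the Hippo pathway protein KIBRA. *Wwc1* was at 149, 122 and 153 CPM in SCA1 and 197, 193 and 245 CPM in WT mice in the Astrocyte.Gja.Slc1a3 nuclei (log2 fold change -0.58), against 0.89 in granule neurons, and its interaction was -1.41 (SE 0.232, edgeR). *Neat1* had an interaction of -1.26 (SE 0.292, edgeR), with -1.05 in the Astrocyte.Gja.Slc1a3 nuclei and 0.26 in granule neurons, where it was at 5.55 to 17.6 CPM. *Sdk1* (interaction -1.31) had log2 fold changes of -0.19 in these nuclei and 1.16 in granule neurons, so that the larger one was that of granule neurons, as for *Wwc1*. On the other side, *Wnk2* (0.94) had 0.65 and -0.26, *Gm1604a* (1.36) had 0.88 and -0.41 and *Gm26512* (0.79) had 0.61 and -0.12.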

How the data were processed

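Processed files of 6 cerebellar libraries were used, each with the UMI counts of every gene in every nucleus and a table of cluster and SingleR label per nucleus. These counts are whole numbers as deposited and were not normalized. The authors aligned reads to mm10 with human *ATXN1* added, counted exons and introns and removed debris. The submitters' notes list Cell Ranger 4.0.0, 5.0.1 and 6.0.1, Seurat 4.0.4 and R 4.1.0. The libraries held 18916647 to 98366627 UMIs, and the nuclei described here 522337 to 3017008 UMIs per mouse. No doublet caller was run. Shares and limits from a count of 0 cover counting error only.

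Counts were summed per mouse and tested with edgeR 4.0.16 (R 4.3.3), with TMM scaling, filterByExpr (minimum count 10, minimum total 15) and genotype and batch as terms. The SE is the log2 fold change divided by the square root of F. Marker levels set between labels are CPM of all UMIs, and genotypes were compared in CPM scaled by TMM. Levels in other nuclei are unscaled CPM unless stated. Whether separate cages or days lie behind the mice is not given, and p-values measure the spread between these mice. Deviations from the genotype means correlated between mice with the same number at 0.761, 0.102 and 0.644. Mouse 1 of both genotypes is also batch 1. Nothing in the labels says what the numbers stand for, SCA1 mouse 2 was as close to WT mouse 1 (0.106), and WT mouse 2 was closer to SCA1 mouse 3 (0.195) than to its own number.

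Alternatives used DESeq2 1.42.0, limma 3.58.1, scran 1.30.0 and scater 1.30.1, along with other scalings and filters, deeper or thinned nuclei, the label alone, the block and each mouse left out. Tables and plots were made in Python 3.11.15 with pandas 2.3.3, numpy 2.4.6, matplotlib 3.10.9 and scipy 1.17.1. Scripts were tested on simulated data. Gene positions are from GENCODE M21 on GRCm38, which is mm10.

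The plan took the nuclei to be velate astrocytes and the Gja1.Htra1 nuclei to be Bergmann glia. The pair of labels compared is as planned, and the names are not used. The nuclei, gene lists and rules were chosen with earlier results of these data known. Genes were named where the study names them, where they mark the nuclei, where they were called, as the 10 on each side with the smallest p of at least 20 CPM without overlap, as up to 4 of each list, or as the 3 on each side of an interaction. List genes outside this rule whose mice did not overlap, such as *Fgf12* and *Ddit4*, were named after their values were seen. Some genes that met the rule are not reported here.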

Additional observations from a re-analysis of the deposited data

How the results depend on the processing

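With edgeR and batch 0 genes were called, and this count was also 0 with RLE factors, library size only, limma-trend on sums, no batch term, nuclei of at least 3000 UMIs, thinned nuclei, no very deep nuclei and the label alone. It was 16 of 21681 genes without the filter on low counts, 3 with DESeq2, 402 with nuclei taken as replicates and 0 to 1 with a mouse left out. The 1 gene was *Ttr*, a choroid plexus gene, without SCA1 mouse 1 or without WT mouse 1. Both of these fits compare the genotypes within batch 2. With the replicate block in place of batch 7 genes were called, all 7 among the 402 on nuclei, and of the genes whose fold change is printed the replicate block changed no other call. Genes without overlap numbered 1026 without the filter and 1024 to 2261 with a mouse left out, where groups of 2 separate more easily. The interaction with Gja1.Htra1 nuclei gave 9 genes without the filter and 0 to 25 with a mouse left out, 25 without WT mouse 1 and 1 without SCA1 mouse 1, and that with granule neurons gave 1 with DESeq2. Astrocyte.Gja.Slc1a3 nuclei were on average 2.46% of all nuclei in SCA1 and 2.37% in WT mice (two-sided exact permutation p = 0.7). This difference of 0.0991 percentage points turned to -0.569 in nuclei of at least 3000 UMIs, where the share in WT mouse 2 rose from 1.97% to 4.15%. With a mouse left out the difference ranged from -0.100 to 0.273 (exact permutation p of 0.4 to 1).

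Signs of some fold changes turned. *Gpc5* was at 0.94 with the label alone, *Hsph1* at 0.058 in thinned nuclei and *Ncam2* at -0.041 without the batch term. *Slc1a2* was at 0.029 with library size only and 0.031 on nuclei, *Atxn1* at 0.033 and 0.057, and *Gria1* at 0.034 on nuclei. *Ttr* was at 1.57 without the batch term and 1.00 on nuclei. With a mouse left out, log2 fold changes ranged from -0.039 to 0.94 for *Vim*, -0.25 to 0.54 for *Apoe*, -0.19 to 0.49 for *Cd44*, -0.13 to 0.29 for *Ncam2*, -0.0040 to 0.53 for *Sema6d*, -0.012 to 0.24 for *Serpine2*, -0.085 to 0.64 for *Clu*, -0.22 to 0.18 for *Slc1a2*, -0.18 to 0.18 for *Atxn1*, -0.31 to 0.21 for *Gria1*, -0.11 to 0.58 for *Ano4*, -0.29 to 0.17 for *Dach2*, -0.38 to 0.084 for *Sdk1* and -5.84 to 1.77 for *Ttr*. The difference in the share of nuclei with a UMI turned for *Atxn1* in thinned nuclei (-0.283 percentage points) and for human *ATXN1* with the label alone (-0.112). With a mouse left out it ranged from -0.227 to 1.67 for *Apoe*, -15.3 to 2.52 for *Vegfa*, -7.58 to 7.40 for *Atxn1* and -0.117 to 0.217 for human *ATXN1*. The causes were not tested.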

Other observations

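*Ttr*, which encodes transthyretin and is made in bulk by choroid plexus, set single libraries apart and not genotypes. In the Astrocyte.Gja.Slc1a3 nuclei it was at 517, 3.19 and 0 CPM in SCA1 mice 1, 2 and 3 and at 1.35, 72.8 and 113 CPM in WT mice 1, 2 and 3. The same libraries were high in the other nuclei, with 717 CPM in granule neurons of SCA1 mouse 1 and 103 and 128 CPM in those of WT mice 2 and 3. The log2 fold change was -1.65 (SE 2.35, edgeR).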
